A study of Solanum tuberosum with 12 samples.

Results

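The genes described here are 214 potato genes that had reads in shoot tips that were never frozen and were higher after cryopreservation by a similar factor in cool white light, in darkness and under red and blue light-emitting diodes (LEDs). They were chosen from CPM (the read count of a gene divided by the total of its library, times 1000000), averaged over the 3 libraries of a group. A member had a mean of at least 2 CPM in non-cryopreserved tips and at least 4 times that mean in each of the 3 recovery conditions, and the highest of those 3 means was under 2 times the lowest. The rule kept 214 of the 39027 genes in the count tables, or 0.548%. All 214 also passed the filter on low counts that left 19920 genes for testing. The rule used the group means, so levels and ratios between groups are given as a description of the members and are not evidence for a response.

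RNA came from shoot tips of Solanum tuberosum, genotype Agrie Dzeltenie, from 3.5-week-old plants grown in vitro, as 12 libraries in 4 groups, each with 3 biological replicates of 10 pooled tips. Tips of 3 groups were treated for 2 h with 10% dimethyl sulfoxide, which penetrates cells and hinders ice crystals, in medium with 30% sucrose, frozen in droplets, held in liquid nitrogen for 1 h and rewarmed. After 48 h in darkness on a regeneration medium with zeatin riboside, gibberellic acid and indole acetic acid, they spent 16 h under cool white fluorescent tubes, under LEDs (90% red, 10% blue), or without light. The fourth group was not cryopreserved and was kept under cool white light only. Both lamps delivered 40 µmol of photons per square metre and second. Non-cryopreserved tips were trimmed to 1 mm, whereas tips for freezing were cut at 2 to 3 mm. Whether non-cryopreserved tips also had the 48 h of darkness or the regeneration medium is not stated in the labels, so cryopreservation and these differences in handling cannot be told apart.

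Freezing and thawing expose plant cells to ice, loss of water, concentrated solutes and wounding, and surviving cells are known to switch on defence and repair programmes in which reactive oxygen species, abscisic acid, jasmonate and ethylene act as signals. Light acts on gene expression through separate photoreceptors, the phytochromes for red light and the cryptochromes and phototropins for blue light. The files do not pair gene identifiers with names. None of the identifiers matched the RefSeq gene table of SolTub_3.0 used here (0 of 39027), so members are given by identifier, with no role, position or sequence, and the tissue could not be checked by marker genes.

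Libraries held 6342324 to 10572258 counted reads. Counting noise alone did not account for the spread of replicates: chi-square divided by its degrees of freedom was 3.08 to 20.7 over pairs of replicates. LED replicates 1 and 3 made the widest pair, and the highest value in any other group was 6.94. Values of the members are therefore also given without single libraries. Reads of a member in the non-cryopreserved group ranged from 43 to 6370 over its 3 libraries, with a median of 137. The lowest total, 43 reads, has an exact 95% Poisson interval of 31.1 to 57.9 reads, which covers counting error only.

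The 214 genes took a small share of all reads, and that share was several times larger after cryopreservation. They held 2.78%, 2.87% and 2.25% of reads in cool white replicates 1 to 3, against 0.486%, 0.417% and 0.387% in non-cryopreserved replicates 1 to 3. In LED replicates 1 to 3 they held 1.87%, 2.58% and 3.50%, and in dark replicates 1 to 3 they held 2.71%, 3.05% and 2.85%. The means were 2.63% ± 0.335 under cool white light, 2.65% ± 0.818 under LEDs, 2.87% ± 0.166 in darkness and 0.430% ± 0.0507 in non-cryopreserved tips (SD, n = 3 each). The cryopreserved and non-cryopreserved libraries did not overlap. The rule fixes this for the means and leaves little room for a single library to overlap, so nothing is read from it. In pooled tissue, more cells that express a gene and more RNA of that gene per cell cannot be told apart.

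**Figure D1:**
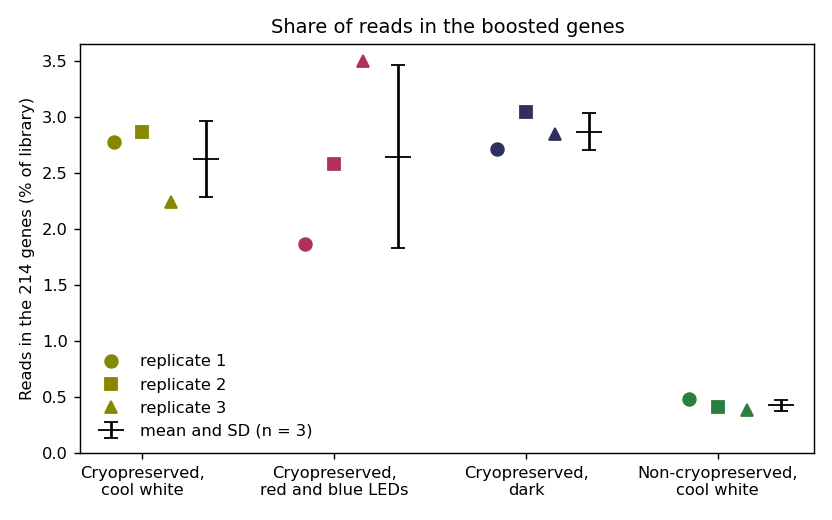
Share of each library's reads in the 214 genes (vertical axis, percent), for 3 replicates in each of 4 groups (horizontal axis), with the mean and SD beside them. The 9 cryopreserved libraries lie between 1.87% and 3.50% and the 3 non-cryopreserved libraries between 0.387% and 0.486%, and the LED replicates are the most spread.

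The median member had 6.26 times the mean of non-cryopreserved tips under cool white light, 6.05 times under LEDs and 6.14 times in darkness. Taking for each gene the lowest of its 3 ratios, 89 members lay between 4 and 5 times, 93 between 5 and 8 times, 27 between 8 and 16 times and 5 at 16 times or more, with a median of 5.27. Levels in non-cryopreserved tips were mostly low as well: 87 members had 2 to 5 CPM there, 52 had 5 to 10, 55 had 10 to 50, and 20 had 50 or more. In these classes, in that order, the median lowest ratio was 5.19, 5.55, 5.53 and 4.88, and 15, 9, 8 and 0 members reached 8. The control mean is the divisor of each ratio and was used by the rule, so nothing is read from the classes. Such values are not adjusted for gene length and compare a gene with itself between groups.

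For 211 of the 214 members, all 9 cryopreserved libraries lay above all 3 non-cryopreserved libraries, where 22.1% of all tested genes did so. The lowest cryopreserved library was at least 2 times the highest non-cryopreserved library in 177 members and at least 4 times in 40, where 3.31% and 0.633% of all tested genes were. By the quasi-likelihood test of edgeR, with p adjusted over all genes by the method of Benjamini and Hochberg, all 214 were called higher than in non-cryopreserved tips at an adjusted p under the threshold of 0.05 in each recovery condition. Among all genes tested, 27.8% were called higher for cool white light, 27.3% for LEDs and 27.7% for darkness. The members were chosen on these contrasts, and the 3 comparisons share their non-cryopreserved libraries, so nothing is read from these counts. The median log2 fold change of the members was 2.58 for cool white light, 2.56 for LEDs and 2.65 for darkness, beside 0.05, 0.03 and -0.01 over all genes tested.

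PGSC0003DMG400005108 had the largest ratio in every recovery condition. It had 381, 398 and 195 CPM under cool white light and 151, 193 and 511 CPM under LEDs. In darkness it had 356, 461 and 453 CPM, against 5.99, 8.48 and 8.33 CPM in non-cryopreserved tips. Every cryopreserved library was far above the controls, but within the lights the libraries were uneven, with cool white replicate 3 and LED replicates 1 and 2 low. Its mean was 42.7 times the control mean under cool white light, 37.5 times under LEDs and 55.7 times in darkness. The log2 fold changes from edgeR were 5.35 (SE 0.47), 5.18 (SE 0.47) and 5.81 (SE 0.48) in that order. Without LED replicate 3 the log2 ratio of LED and control means was 4.50, against 5.23 with it.

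PGSC0003DMG400012669 was next in each condition. Its values were 515, 541 and 347 CPM under cool white light and 640, 624 and 871 CPM under LEDs. In darkness they were 704, 846 and 429 CPM, against 23.0, 17.9 and 18.6 CPM in non-cryopreserved tips. The LED libraries were all above the cool white libraries, and the dark libraries overlapped both. The mean was 23.6 times the control mean under cool white light, 35.8 times under LEDs and 33.2 times in darkness.

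The largest number of reads went to PGSC0003DMG400035878 and PGSC0003DMG400036004, a pair singled out after their values were seen. The first had 1556, 1455 and 1361 CPM under cool white light, 877, 1554 and 1758 CPM under LEDs and 1761, 2045 and 1911 CPM in darkness, against 433, 224 and 234 CPM in non-cryopreserved tips. LED replicate 1 was the lowest cryopreserved library and non-cryopreserved replicate 1 the highest control. The second gene followed it closely: the ratio of the pair stayed between 0.988 and 1.137 over all 12 libraries. The sources used here do not give how reads that map to more than 1 place were counted, so the 2 values may not be separate if the genes are near-identical copies. The pair held 11.2% of the members' summed CPM after cryopreservation, and 17 members together held more than 50% of it.

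**Figure D2:**
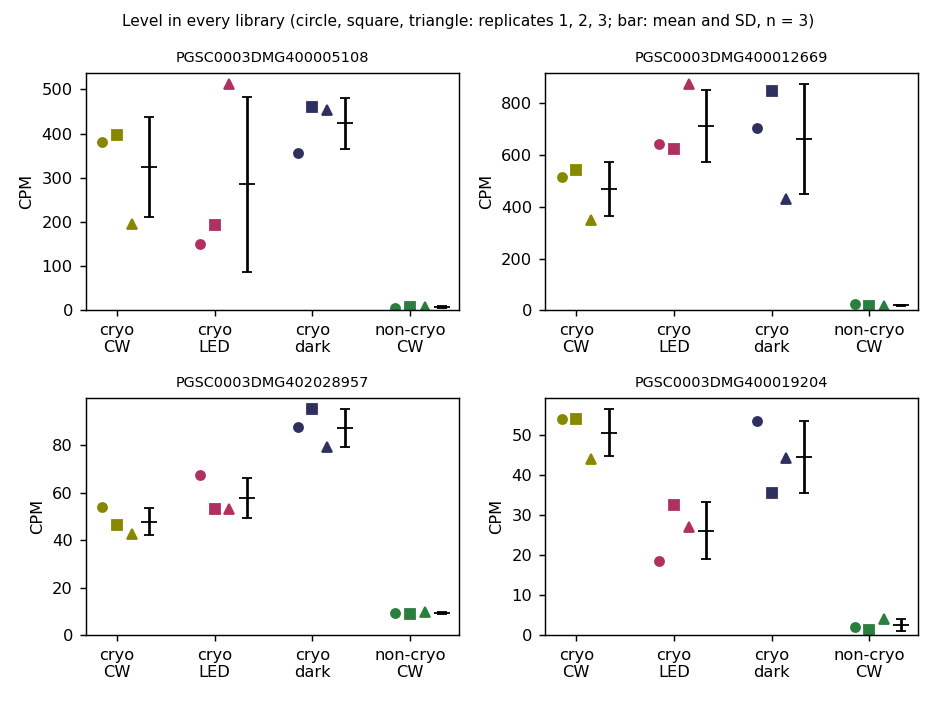
Level in CPM (vertical axes) of 4 members in every library of the 4 groups (horizontal axes), with mean and SD (n = 3). The upper pair has the largest ratios to non-cryopreserved tips. Of the lower pair, PGSC0003DMG402028957 is highest in darkness (79.3 to 95.3 CPM). Among the recovery conditions, PGSC0003DMG400019204 is lowest under LEDs (18.5 to 32.6 CPM).

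Within the limit of 2 times set by the rule, the recovery conditions were usually much closer. The highest mean was a median of 1.26 times the lowest. It was under 1.1 times in 24 members, under 1.25 times in 102 and under 1.5 times in 179. Darkness was the highest condition in 81 members, cool white light in 70 and LEDs in 63, and the lowest condition was LEDs in 81, cool white light in 70 and darkness in 63. For 44 of the 214 members the 3 libraries of the highest condition lay entirely above the 3 of the lowest, and for the other 170 they overlapped. Over all tested genes the libraries of the highest and lowest condition were apart in 47.6%, and since the rule capped the ratio between conditions, nothing is read from the members' count. LED means were above cool white means in 100 members and below in 114, dark means were above cool white means in 114 and below in 100, and LED means were above dark means in 96 and below in 118.

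Calls between recovery conditions by edgeR's quasi-likelihood test are given as counts out of the 214 members, beside percentages of all genes tested. In darkness against cool white light 12 members were called higher and 0 lower, where 4.55% of all tested genes were called higher and 10.4% lower. Under LEDs against darkness 0 members were called higher and 10 lower, where 7.17% and 3.46% of all genes were. Under LEDs against cool white light 1 member was called higher and 1 lower, where 0.377% and 1.06% were. Without single libraries, the 12 dark against cool white members became 4, 6 and 20 when dark replicates 1, 2 and 3 were dropped and 7 when cool white replicate 2 was dropped, all of them higher. Of all genes, 478, 630, 709 and 426 were called higher in these fits, and 1561, 1510, 1750 and 1564 lower. When cool white replicate 3 was dropped 4 members were higher and 3 lower, beside 628 higher and 1681 lower among all genes. With only the 2 groups in the fit 25 members were higher and 3 lower, beside 1242 and 2415 among all genes. The 10 LED against dark members became 36, all lower, without LED replicate 3. Among all genes that fit called 1929 higher and 1065 lower, in place of 1429 and 689. A test for any difference among the 3 conditions called 16 members, against 15.7% of all genes. The rule capped these differences, so the counts follow in part from the choice of members and nothing is read from them. With library size as the only scaling, the dark and cool white split was 7 higher and 2 lower members, beside 478 higher and 2502 lower genes in place of 907 and 2079 overall.

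PGSC0003DMG400022344 and PGSC0003DMG402028957 had the largest ratios of darkness to cool white light. PGSC0003DMG402028957 had 87.3, 95.3 and 79.3 CPM in darkness, against 53.9, 46.4 and 42.7 CPM under cool white light. It had 67.2, 52.9 and 53.0 CPM under LEDs, against 9.30, 8.97 and 10.0 CPM in non-cryopreserved tips. All dark libraries were above all libraries of both lights, and the replicates of each group lay close together. The dark mean of 87.3 ± 7.99 CPM was 1.83 times the cool white mean of 47.6 ± 5.69 CPM (SD, n = 3 each). PGSC0003DMG400022344 had 63.3, 62.4 and 47.5 CPM in darkness, against 32.4, 37.0 and 23.6 CPM under cool white light, with a ratio of means of 1.86 and no overlap. Its LED libraries, at 33.2, 29.7 and 36.6 CPM, overlapped the cool white ones.

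PGSC0003DMG400008485 and PGSC0003DMG400010136 lay at the other end, with dark means 0.553 and 0.593 times the cool white means. PGSC0003DMG400008485 had 25.1, 15.8 and 17.0 CPM in darkness, against 45.6, 37.9 and 21.1 CPM under cool white light. Dark replicate 1 was above cool white replicate 3, so these groups overlapped. PGSC0003DMG400010136 had 33.8, 14.6 and 36.4 CPM in darkness, against 66.6, 25.3 and 51.1 CPM under cool white light, and these overlapped too. It was the only member with a control library at 0 reads: it had 0, 164 and 5 reads in non-cryopreserved replicates 1 to 3. Its mean of 6.93 ± 11.4 CPM there (SD, n = 3) rested on 1 library, which at 20.1 CPM was above dark replicate 2.

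Between LEDs and cool white light, PGSC0003DMG400024849 and PGSC0003DMG400002523 had the largest ratios and PGSC0003DMG400019204 and PGSC0003DMG401015527 the smallest. PGSC0003DMG400024849 had 22.9, 16.2 and 17.8 CPM under LEDs, against 10.3, 10.7 and 8.47 CPM under cool white light, a ratio of means of 1.93 with no overlap. PGSC0003DMG400002523 had 16.0, 11.5 and 18.5 CPM under LEDs, against 9.68, 9.11 and 8.83 CPM under cool white light, again with no overlap, and its dark libraries at 13.9, 11.3 and 5.12 CPM reached below both. PGSC0003DMG400019204 had 18.5, 32.6 and 27.1 CPM under LEDs, against 53.9, 54.0 and 43.9 CPM under cool white light. Its LED libraries were all below its cool white libraries, with a ratio of means of 0.516, and its 3 dark libraries at 53.5, 35.6 and 44.2 CPM were above its LED libraries as well. For PGSC0003DMG401015527 the LED values of 11.4, 33.9 and 22.5 CPM lay below the cool white values of 45.0, 49.9 and 35.0 CPM, with a ratio of 0.52. Of these genes, edgeR's quasi-likelihood test called only PGSC0003DMG400024849 between LEDs and cool white light, and PGSC0003DMG400002523 had an adjusted p of 0.21.

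Between LEDs and darkness, PGSC0003DMG400012492 and PGSC0003DMG400045121 had the smallest ratios. PGSC0003DMG400045121 had 11.3, 11.8 and 8.84 CPM under LEDs, against 18.2, 19.8 and 20.3 CPM in darkness, and PGSC0003DMG400012492 had 32.3, 41.4 and 41.6 CPM under LEDs, against 83.8, 67.9 and 61.4 CPM in darkness. Neither overlapped, and the ratios of means were 0.547 and 0.541. The largest ratios belonged to PGSC0003DMG400008485, with an LED mean 1.75 times its dark mean, and to PGSC0003DMG400026382. PGSC0003DMG400026382 had 92.5, 89.7 and 107 CPM under LEDs, against 57.0, 68.3 and 45.1 CPM in darkness, a ratio of 1.70 with no overlap. Neither PGSC0003DMG400008485 nor PGSC0003DMG400026382 was called, since edgeR's quasi-likelihood test called 0 members higher under LEDs than in darkness.

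The values of single members just inside and just outside the thresholds show how near the edge the rule falls. The lowest control mean among members was 2.02 CPM, and a gene left out for its control level had 1.92 CPM with means of 18.9 CPM in cool white light, 25.9 CPM with LEDs and 24.0 CPM in the dark. The smallest ratio of a member was 4.005, and the nearest gene left out had 3.99. The widest member differed 1.94 times between recovery conditions, and the nearest gene left out 2.01 times.

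The rule used group means and set no limit on the spread among replicates, so a gene could pass through 1 high library. The coefficient of variation over the 3 LED libraries had a median of 37.2% in members, against 12.3% in all 16369 genes with at least 2 CPM in every group. It was 18.9% against 9.02% under cool white light, 19.1% against 10.5% in darkness and 26.7% against 10.7% in non-cryopreserved tips. In 57 members 1 LED library held more than 50% of the group's summed CPM, against 4 members under cool white light, 7 in darkness and 23 in non-cryopreserved tips. The larger spread of members held in all 4 groups as a description, with no test over genes. The expressed genes were not matched to the members for level, and counting noise widens the spread of genes with few reads. The part of level in the larger spread was not tested. How many expressed genes had 1 library above 50% was not counted, so nothing is read from the members' counts.

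The LED spread ran in 1 direction through most members. Replicate 3 was the highest LED library in 178 of the 214 members and replicate 1 the lowest in 171. Among the 16369 expressed genes replicate 3 was highest in 31.0% and replicate 1 lowest in 32.5%. The difference of a library from its group mean, on the log2(CPM + 0.5) scale, had a median over members of -0.52 in LED replicate 1, 0.04 in replicate 2 and 0.50 in replicate 3. Over expressed genes the same medians were 0.03, 0.01 and -0.02. Cool white replicate 3 also lay low, at -0.23, and was the lowest of its group in 175 members, against 35.6% of expressed genes. Dark replicates lay at -0.09, 0.05 and 0.07 and non-cryopreserved replicates at 0.14, -0.01 and -0.14. The rule took the LED mean, so a gene could become a member through a high LED replicate 3. Without that library 156 of the 214 members met the rule. The direction of the LED spread may thus follow in part from the choice of members, and these counts and medians are a description.

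**Figure D3:**
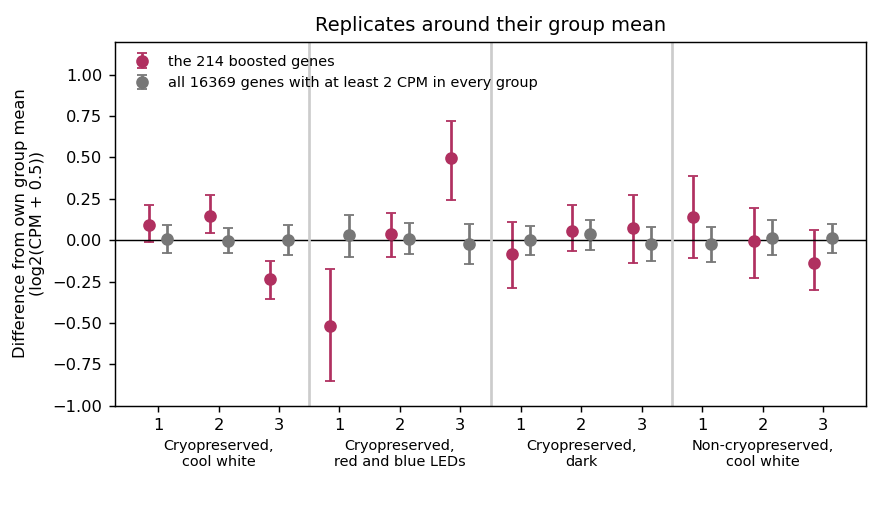
Difference of each library from the mean of its own group on the log2(CPM + 0.5) scale (vertical axis), as the median with quartiles over the 214 genes and over 16369 expressed genes, for replicates 1 to 3 of each group (horizontal axis). The expressed genes stay between -0.02 and 0.03, while the members reach -0.52 in LED replicate 1 and 0.50 in LED replicate 3.

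The opposite held for the 138 genes with at least 2 CPM in non-cryopreserved tips and means at least 4 times lower in every recovery condition, a set formed after the members' values were seen. Their median was 0.33 in LED replicate 1 and -0.21 in LED replicate 3, and 0.27 in cool white replicate 3. LED replicate 3 was 2.00 times LED replicate 1 in the median member, 0.961 times in the median expressed gene and 0.550 times in the median lowered gene. Both libraries that lay low for the members thus lay high for the lowered genes. Both sets were chosen on group means that include these libraries, so the values are a description. LED replicate 1 was the deepest library, with 10572258 reads, and LED replicates 2 and 3 held 6524085 and 9614471. The part of depth in this unevenness was not tested.

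Members shared this unevenness to different degrees. LED replicate 3 was above replicate 1 in 190 members and at least 2 times above it in 107, against 2.93% of expressed genes at 2 times or more, and the ratio ranged from 0.746 to 10.5. The highest ratio belonged to PGSC0003DMG400017399, with 13.4, 32.3 and 141 CPM under LEDs, against 9.30, 5.65 and 5.21 CPM in non-cryopreserved tips. PGSC0003DMG400017400 was next at 10.3 times, with 12.2, 26.7 and 125 CPM under LEDs, against 12.9, 5.53 and 4.69 CPM in non-cryopreserved tips, and both were singled out after their values were seen. LED replicate 1 of PGSC0003DMG400017400 was below its highest control, and it is 1 of the 3 members whose cryopreserved and control libraries overlapped. The others were PGSC0003DMG400010136 and PGSC0003DMG400036797, the second also singled out after its values were seen. PGSC0003DMG400036797 had 3.66 CPM in dark replicate 3, against 3.69 CPM in non-cryopreserved replicate 2. Relative to the control mean, the 107 members at 2 times or more had medians of 3.01, 6.13 and 9.61 in LED replicates 1 to 3. The 40 members at under 1.25 times had 6.24, 5.88 and 5.88. These classes were cut from the values and get no test.

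The same genes were uneven in the dark group, whose libraries took part in choosing the members but not in cutting these classes. Dark replicate 1 was a median of 0.770 times the mean of dark replicates 2 and 3 in the 107 members, and was below that mean in 97 of them. In the 40 steady members it was 1.15 times that mean, and below it in 7. Across the 214 members, the log2 ratio of LED replicates 3 and 1 correlated at r = -0.73 with the difference of dark replicate 1 from replicates 2 and 3, at r = -0.39 with that of non-cryopreserved replicate 3 from 1, and at r = -0.01 with that of cool white replicate 3 from 1 and 2. Over the 16369 expressed genes these were -0.21, -0.12 and -0.32. The correlations run across genes of the same libraries, and genes are not independent replicates. Cool white replicate 3 was low in the classes alike, at 0.780 times the mean of replicates 1 and 2 in the 107 members and 0.805 times in the 40.

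**Figure D4:**
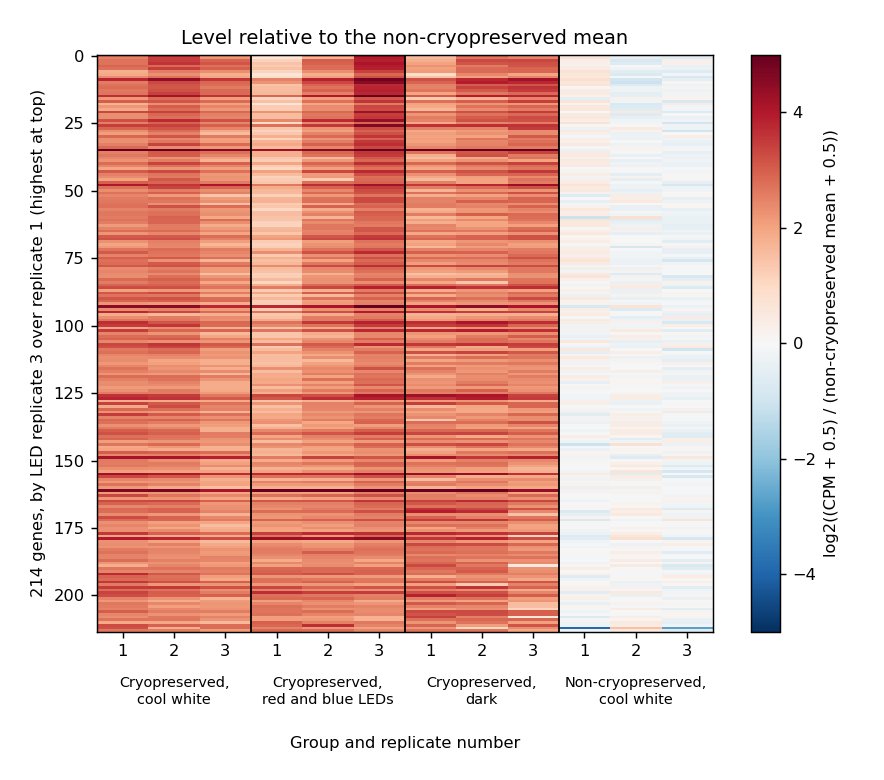
Level of the 214 genes (rows) in the 12 libraries (columns, by group and replicate) relative to the non-cryopreserved mean, as log2 of CPM + 0.5, with rows ordered by the ratio of LED replicate 3 to LED replicate 1. Among the LED columns, replicate 1 is palest and replicate 3 darkest in the upper rows, where the ratio is at least 2 in 107 genes. The LED replicates are even in the lowest rows.

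Members were also chosen from 11 libraries and then read in the library left out. The left-out library took no part in the choice, but it was set against means that did, so the choice still bears on 1 side of each ratio and the values are a description. Over the 9 cryopreserved libraries, the median ratio of the left-out library to the control mean ranged from 3.69 to 8.20. LED replicate 1 gave the lowest value: of 229 genes chosen without it, 101 (44.1%) reached 4 times in it, 217 reached 2 times and all 229 were above the control mean. LED replicate 3 gave the highest, with 154 of 158 genes (97.5%) at 4 times or more. Cool white replicates 1 to 3 had 98.1%, 97.2% and 77.6% of genes at 4 times or more, dark replicates 1 to 3 had 82.7%, 94.8% and 93.5%, and LED replicate 2 had 91.3%.

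Read in a left-out control, the ratios were lower for replicate 1 and higher for replicate 3. The lowest recovery mean was a median of 4.72 times non-cryopreserved replicate 1, 5.09 times replicate 2 and 6.19 times replicate 3, where the controls used for the choice gave 5.50, 5.28 and 5.09. At least 4 times was reached in 68.2%, 77.2% and 85.4% of the genes. Membership was least stable to LED replicate 3, without which 156 of the 214 members (72.9%) met the rule and made up 98.7% of the 158 genes chosen. Without any other single library, 187 to 210 members met it. There were 120 members that met the rule whichever of the 12 libraries was left out.

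**Figure D5:**
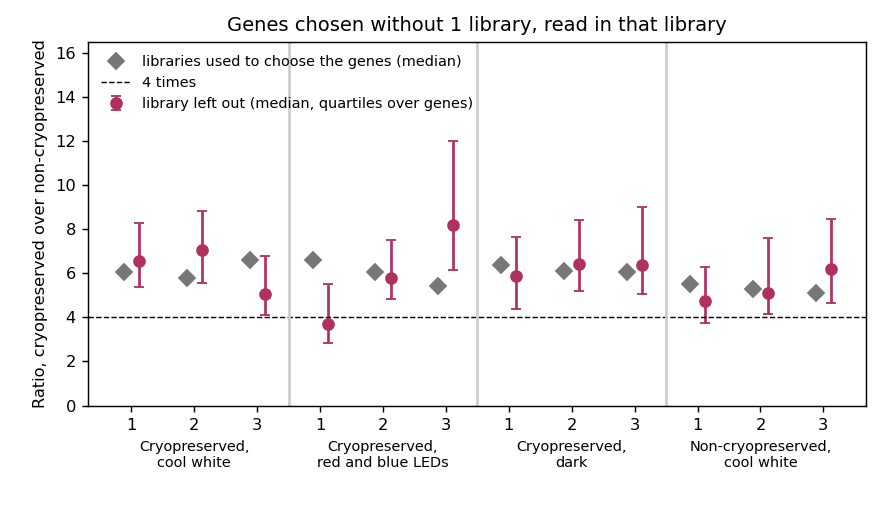
Ratio of cryopreserved to non-cryopreserved level (vertical axis) for genes chosen without 1 library (horizontal axis, by group and replicate): median in the libraries used for the choice, and median with quartiles over genes in the library left out. For controls the ratio is the lowest recovery mean over the library left out. LED replicate 1 is the only library whose median, 3.69, lies under 4.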

How the data were processed

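RNA was measured in 12 libraries, 3 in each of 4 groups taken from the sample titles. Libraries were made from RNA with an integrity number above 7.4 with a stranded mRNA kit, per the labels' protocols. Each library has 1 deposited file of raw, whole-number read counts by gene. Tools listed in the submitters' processing notes, without role or order, are DESeq2 1.14.1, featureCounts 1.5.0, Bowtie 1.1.1, TopHat2 2.0.8b and FastQC 1.11.2. Not given in the sources used here are the genome build, annotation, strand setting and treatment of multiply mapped reads, so values of antisense, overlapping or near-identical genes may be mixed. No row lacked a gene identifier.

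CPM used column totals of 6342324 to 10572258 reads. Members and lists were chosen with earlier results of these data known. Tests used R 4.3.3 and edgeR 4.0.16: filterByExpr (minimum count 10, minimum total 15), TMM scaling, glmQLFit on all 12 libraries with group as factor, 8 residual degrees of freedom, two-sided glmQLFTest and Benjamini-Hochberg adjustment at 0.05. Biological variation, as edgeR's common coefficient, was 13.2%. The size of a log2 fold change divided by the square root of F gave its standard error. Named genes were the 2 members with the largest ratio of means in each comparison, and between recovery conditions also the 2 smallest, 13 genes in all; any other is said to be chosen after its values were seen. Gene lists and cell type markers could not be applied, since no identifier matched 32873 RefSeq genes. Alternatives were other scalings, DESeq2 1.42.0, other filters, fits of only the groups compared, a replicate block, other limits in the rule and each library left out.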

Additional observations from a re-analysis of the deposited data

Results flagged for a closer look

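Of the 13 members named by rule, 6 differed between recovery conditions by edgeR's quasi-likelihood test of that difference, in 9 comparisons with Benjamini-Hochberg adjusted p from 5.05e-05 to 0.0397. The named members were picked for extreme ratios between these conditions, and the rule capped the ratios, so the values are a description. PGSC0003DMG402028957 had log2 fold changes of 0.95 (SE 0.11) in darkness against cool white light and -0.66 (SE 0.11) under LEDs against darkness. For PGSC0003DMG400022344 these were 0.98 (SE 0.17) and -0.86 (SE 0.17), and for PGSC0003DMG400012492 they were 0.75 (SE 0.21) and -0.95 (SE 0.21). PGSC0003DMG400045121 differed by -0.94 (SE 0.16) and PGSC0003DMG400019204 by -0.84 (SE 0.23) under LEDs against darkness, and PGSC0003DMG400024849 by 0.97 (SE 0.21) under LEDs against cool white light. Single libraries far from the others were not tested for, since groups of 3 are too small.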

How the results depend on the processing

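The number of members was 205, 196 and 188 with TMM, DESeq2-style and upper quartile scaling, 279 and 149 with a control level of at least 1 and 4 CPM, 440 and 76 with a ratio of at least 3 and 6, 179 within 1.5 times, 227 with no limit between conditions and 216 with medians. Leaving out 1 library gave 158 to 229. The members called higher than non-cryopreserved tips stayed at 212 to 214 under every alternative run, where 4564 to 5992 of all genes were called higher. The members were chosen on these contrasts, so nothing is read from their counts. Between lights the counts were unstable. Under LEDs against cool white light, 287 genes became 695 with DESeq2, 446 with no filter, 93 with only the groups compared, 135 with the replicate block (members 2) and 19 to 310 without 1 library (95, 19 and 81 without cool white replicates 1, 2 and 3, and 85 without LED replicate 2). The 2 members became 1 with DESeq2-style factors, 4 with library size only, 6 with DESeq2, 5 with no filter, 0 with only the groups compared and 0 to 3 without 1 library (0 without cool white replicate 2 or 3 or LED replicate 2, and 1 without replicate 1 of either). For darkness against cool white light, the 12 members became 28 (25 higher, 3 lower) with only the groups compared and 4 to 20 without 1 library, and 2986 genes became 1990 to 2459, the 1990 without cool white replicate 2. For LEDs against darkness, 2118 genes became 1263 with only the groups compared and 1211 to 2994 without 1 library (1211 without LED replicate 2, 1318 and 1295 without dark replicates 1 and 3), and the 10 members 7 to 36, the 36 without LED replicate 3. The cause was not tested. Fits with fewer libraries have fewer degrees of freedom. Replicate numbers showed no pairing common to all groups: deviations of same-numbered libraries correlated at -0.24 to 0.20, over 0.1 in 4 of 18 pairs, and 4 of 12 libraries correlated best with their own number. Between LEDs and darkness these correlations were 0.20, 0.01 and 0.13 for replicates 1 to 3, and a pairing of those groups was not tested. All 126 alternative values of the named genes' ratios kept their direction. Each moved by less than the spread between single libraries. Dropping 1 of 3 libraries or changing the scaling can hardly move a ratio of means further, so nothing is read from that. Upper quartile scaling shifted log2 ratios to controls by -0.14 for cool white light, -0.11 for LEDs and -0.05 for darkness, relative to library size. Depth limits controls of few reads most.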

Other observations

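A further 13 genes had at least 2 CPM in non-cryopreserved tips and at least 4 times that in every recovery condition, but differed 2 times or more between conditions. Darkness was the highest condition in 10 of them, cool white light in 3 and LEDs in 0, and LEDs were the lowest in 8. The widest of them differed 3.63 times between cool white light and darkness. Another 474 genes reached 4 times in every condition from a control mean above 0 and under 2 CPM.

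Members tended to deviate from their group means together over all 12 libraries, and pairs correlated little over the dark and non-cryopreserved libraries alone. Over the 22791 pairs of members, the correlation of these deviations across the 12 libraries had a median of 0.46, and 81.4% of pairs were above 0, against 0.02 and 51.5% over pairs of the 16369 expressed genes. Over the 6 dark and non-cryopreserved libraries alone the members had a median of 0.07 with 54.1% above 0, against 0.03 and 51.6% in expressed genes. A low median over pairs can hide sets of members that move in opposite directions. Dark replicate 1 was below the mean of dark replicates 2 and 3 in 97 of the 107 members with LED replicate 3 at least 2 times replicate 1. It was below that mean in 7 of the 40 members under 1.25 times. Across the 12 libraries the correlation was over 0.95 for 343 pairs, of which the most-read pair, PGSC0003DMG400035878 and PGSC0003DMG400036004, had 0.99. All pairs share the same libraries, and the deviations of each group sum to 0.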
